A study of Drosophila melanogaster with 3 samples.

Results

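Chromosome arm 3R carried 652 of the 3159 peaks (20.6%) called after chromatin immunoprecipitation and sequencing (ChIP-seq) of GFP-tagged Deformed. The members are every peak whose sequence name in the deposited list is exactly 3R. Peaks on the separate heterochromatic scaffold 3RHet are not among them. The ChIP sample came from Drosophila melanogaster with Deformed tagged by GFP (Dfd-GFP), precipitated with the anti-GFP antibody NWG-GFP, and its title covers replicates 1 and 2. The control group consists of 2 input samples, that is, chromatin that was not precipitated, whose data were not analysed here. All 3 samples carry the stage code 10T-W3L, whose meaning is not stated. The growth protocol in the labels, which does not name this stage, describes embryos of y w, VK37 flies fixed in 1.8% formaldehyde for 15 min. The single list joins both replicates, so no value below has a replicate error. The depth is unknown, since no read number was found in these sources.

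Deformed is a homeodomain transcription factor, encoded by a Hox gene of the Antennapedia complex, and is known for giving identity to head segments. Hox proteins bind short DNA sites, often together with cofactors such as Extradenticle, and their target enhancers can hold several such sites. Both Hox clusters of the fly lie on 3R. In the RefSeq gene table of Release 6 of the genome, the 8 Hox genes run along the arm in the order lab, pb, Dfd, Scr and Antp, then Ubx, abd-A and Abd-B. The nearest protein-coding genes to Dfd in that table are Ama and Scr. The peaks are placed on the older build BDGP5 (Release 5), and no position was carried from one build to the other. No peak is therefore assigned to a Hox gene or to any other gene, and the peaks are described by position only. Positions on 3R are numbered from the centromere side towards the telomere.

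The first peak lay at 3564 to 4311, near the start of the numbering, and the last at 27873110 to 27873737, a span of 27.87 Mb. How much of the arm lies beyond the last peak is not given, since arm lengths were not used. Over that span there were 23.4 peaks per Mb, and the peaks covered 502 kb, or 1.80% of it. Set beside it, 2L had 479 peaks at 21.0 per Mb, 3L had 572 at 24.6 and X had 773 at 34.7.

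The density on 3R was lower than on X, and no difference from 2L or 3L passed the test. The ratio of 3R to X was 0.674 (95% Clopper-Pearson interval 0.606 to 0.749, exact conditional Poisson test, two-sided, p = 3.2e-13 after Benjamini-Hochberg adjustment over the 3 arms). The ratio of 3R to 2L was 1.11 (interval 0.989 to 1.26, adjusted exact p = 0.109), and that of 3R to 3L was 0.953 (interval 0.850 to 1.07, adjusted exact p = 0.405). The test treats each peak as 1 independent event, whereas the peaks lie partly in groups, so the intervals are too narrow. Among the peaks in the highest 10% of scores over these 4 arms, 3R and X held 70 each. The ratio of 0.799 did not pass (interval 0.565 to 1.13, adjusted exact p = 0.395), but its interval holds the ratio of 0.674 found with all peaks. Among peaks at or above the median score of the 4 arms, with 316 on 3R and 372 on X, the ratio was 0.678 (interval 0.582 to 0.790, adjusted exact p = 1.2e-06).

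Peaks were spread unevenly between stretches of 1 Mb. The 26 complete fixed bins of 1 Mb, counted from position 1, held 23.3 ± 7.56 peaks (mean ± SD over bins), with a median of 24 and a range of 10 to 39. The fullest was 14000001 to 15000000 with 39 peaks, followed by 9000001 to 10000000 with 36 and 13000001 to 14000000 with 33. The next were 25000001 to 26000000 with 32 peaks and 17000001 to 18000000 with 30. Together these 5 bins held 170 peaks, or 26.1% of the arm's peaks on 17.9% of its span. Full bins were not all neighbours: 3 of the 5 stood apart from one another along the arm, whereas the other two adjoined.

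The emptiest bins held less than the mean by more than 1 SD. The bins 1000001 to 2000000 and 22000001 to 23000000 held 10 peaks each. The bins 8000001 to 9000000 and 15000001 to 16000000 held 13 each, and 21000001 to 22000000 held 14. The bin with 39 peaks was thus followed directly by one with 13. Pearson's r between the counts of adjacent 1 Mb bins was 0.11 over 25 pairs, given as a description of bins that share 1 list.

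**Figure D1:**
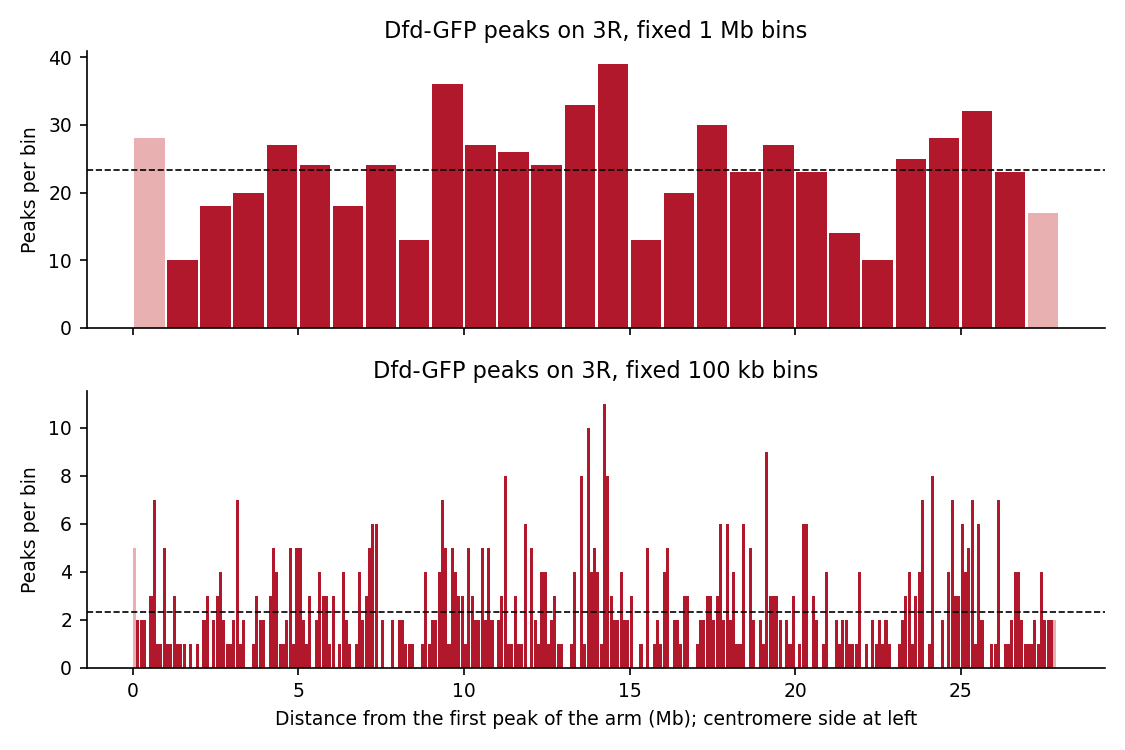
Number of Dfd-GFP peaks on 3R per fixed bin of 1 Mb (top) and 100 kb (bottom), against the distance from the first peak of the arm in Mb. Bars in pale red are incomplete end bins, and dashed lines mark the mean of complete bins, 23.3 peaks for 1 Mb and 2.33 for 100 kb. The fullest complete bins hold 39 and 11 peaks and lie near the middle of the arm.

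The fullest region of the arm straddled the border of 2 of these bins. With bins moved by 500 kb, the stretch from 13500001 to 14500000 held 55 peaks, or 8.44% of the arm's peaks on 3.59% of its span. The next fullest moved bin, 24500001 to 25500000, held 40. With the same shift, the fullest bin held 32 peaks on 2L, 48 on 3L and 57 on X. The makeup of the stretch with 55 peaks is given as a description, since it was chosen after its count was seen.

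Within that stretch, the 100 kb bins starting at 13500001, 13700001, 14200001 and 14300001 held 8, 10, 11 and 8 peaks. The bins starting at 13600001 and 14100001 held 1 peak each, so the stretch itself alternated between full and nearly empty parts. It held 11 groups with 32 peaks (58.2%), against 178 of the other 597 peaks of the arm (29.8%). Here a group means consecutive peaks with no more than 5 kb free between one and the next. The share in groups depends on density, and the stretch was chosen for its count, so this contrast follows in part from the choice. The median score was 70.9 inside the stretch and 80.2 on the rest of the arm, whereas peaks in the highest 10% of scores over the 4 arms made up 16.4% inside (9 of 55) and 10.2% outside. The highest peak inside scored 706.68. The score is the authors' own value from the peak caller, and is used only to compare peaks within the list. The width was 695 bp at the median inside and 706 bp outside, but the upper quartile was 957 bp inside and 831 bp outside. Peaks of at least 1 kb made up 20% inside (11 of 55) and 11.6% outside. Medians and upper ends thus differed in opposite directions, in score as in width.

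At the scale of 100 kb, most bins held a peak. Of 277 complete bins, 48 (17.3%) were empty, 70 held 1 peak, 60 held 2 and 41 (14.8%) held 5 or more. Those 41 bins carried 256 peaks, or 39.7% of the peaks in complete bins. The empty share was 21.6% on 2L, 17.7% on 3L and 10.8% on X, so 3R lay close to 3L in this measure. The variance of the counts was 1.85 times their mean on 3R, against 1.85 on 2L, 1.79 on 3L and 1.69 on X. Counts that follow a Poisson distribution would give a ratio near 1. None of these differences between arms was tested, because bins of 1 list are not replicates.

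**Figure D2:**
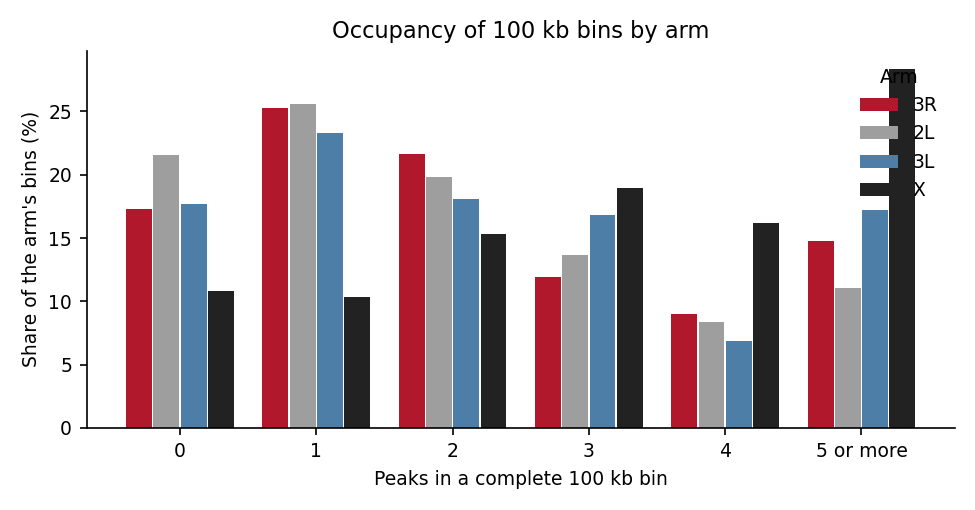
Share of complete 100 kb bins, in percent of the arm's bins, that hold 0, 1, 2, 3, 4 or at least 5 peaks, with 3R in red beside 2L, 3L and X. Empty bins make up 17.3% on 3R, and bins with at least 5 peaks make up 14.8% on 3R and 28.4% on X.

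The fullest 100 kb bins lay at several places along the arm. The bin 14200001 to 14300000 held 11 peaks, 13700001 to 13800000 held 10 and 19100001 to 19200000 held 9. Those with 8 peaks started at 11200001, 13500001, 14300001 and 24100001, and those with 7 that come next by position started at 600001, 3100001 and 9300001. These 10 bins carried 83 peaks, 12.7% of the arm's total, on 3.59% of its span. A full bin could hold mostly grouped peaks, as at 3100001 with 7 of 7 in groups, or fewer, as at 13700001 with 4 of 10. The highest scores in these bins ranged from 102.37 at 13500001 to 964.79 at 11200001. The fullest 100 kb bin held 10 peaks on 2L, 9 on 3L and 13 on X. With bins moved by 50 kb, the fullest held 9 peaks on 3R, 10 on 2L, 12 on 3L and 19 on X. The order of 3R, 2L and 3L in this measure thus depended on where the bins began.

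Occupied bins followed each other for up to 22 bins in a row, from 8700001 to 10900000, and empty ones for no more than 2. On 2L, 3L and X the longest rows of occupied 100 kb bins had 16, 19 and 36. The longest rows of empty ones there had 4, 4 and 3. Divided into 4 equal parts from the centromere side, the span held 145, 179, 175 and 153 peaks, or 20.8, 25.7, 25.1 and 22.0 per Mb. The middle parts were thus fuller than both ends. Wide peaks, of at least 1 kb, made up 16.6%, 13.4%, 11.4% and 7.84% of the peaks of these parts in the same order. Their share was thus smaller in each part further towards the telomere. Peaks in the highest 10% of scores over the 4 arms numbered 20, 24, 13 and 13. None of these differences along the arm was tested.

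Consecutive peaks on 3R were separated by a median of 22.3 kb of free sequence (quartiles 7.96 and 56.2 kb, 95% order-statistic interval of the median 19.5 to 24.4 kb). The 651 gaps ran from 8 bp to 318 kb, with a mean of 42.0 kb. The medians of the other arms were 25.4 kb on 2L, 21.3 kb on 3L and 15.4 kb on X. Gaps of 20 to 100 kb were the most common class on 3R, with 272 of 651 (41.8%), and they took up 46.6% of the span. At the short end, 41 gaps (6.30%) were under 1 kb and 8 of these were under 100 bp. Gaps of 100 kb or more numbered 75 (11.5%), yet took up 43.0% of the span.

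**Figure D3:**
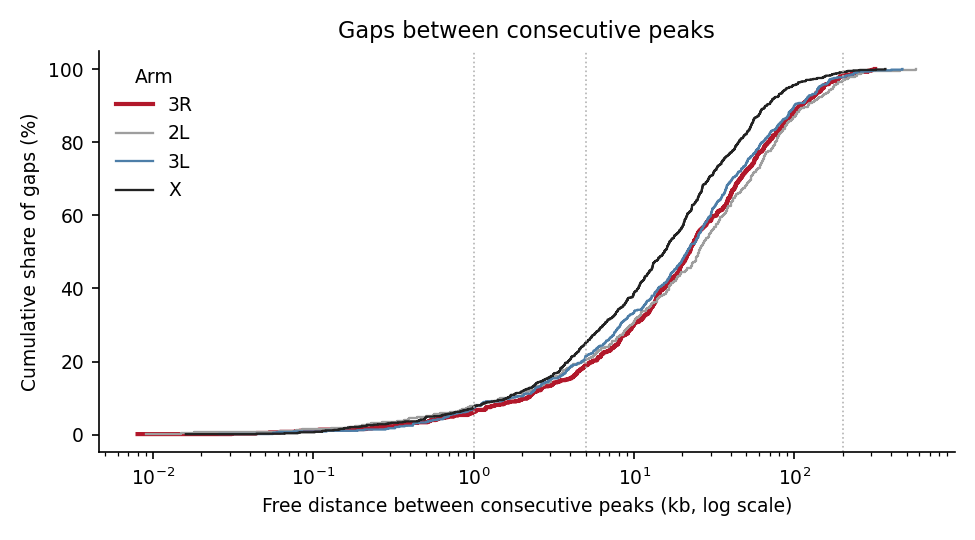
Cumulative share of gaps between consecutive peaks, in percent, against the free distance in kb on a log scale, for 3R (thick red line), 2L, 3L and X. Dotted lines mark 1, 5 and 200 kb. The lines of 3R, 2L and 3L run close together, with medians of 22.3, 25.4 and 21.3 kb, and that of X lies to their left, with a median of 15.4 kb.

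On 3R there were 87 groups with 210 peaks, or 32.2% of its peaks (exact 95% interval 28.6 to 35.9). The share was 36.5% on 2L (32.2 to 41.0), 38.3% on 3L (34.3 to 42.4) and 42.7% on X (39.2 to 46.3). The intervals cover counting error only. They take each peak as independent, whereas peaks enter a group together, so they are too narrow. Whether they overlap is given as a description and is no test. The interval of 3R did not overlap with that of X and overlapped with those of 2L and 3L. The shares were not tested because they depend on density. With the limit at 10 kb the share was 48.8% on 3R (44.9 to 52.7), 49.5% on 2L, 54.2% on 3L and 61.3% on X (57.8 to 64.8). The intervals of 3R and X did not overlap there either. With the limit at 2 kb the share was 18.3% on 3R (15.4 to 21.4), 20.7% on 2L, 19.8% on 3L and 21.7% on X (18.9 to 24.8). Here the intervals of 3R and X overlapped. They also overlapped among peaks at or above the median score of the 4 arms, with groups formed from those peaks alone. The share there was 21.5% on 3R (17.1 to 26.5), 18.1% on 2L, 25% on 3L and 25.5% on X (21.2 to 30.3). The order of 3R and 2L was then the other way round.

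Most groups on 3R were pairs. Of the 87 groups, 64 held 2 peaks, 15 held 3, 5 held 4, 2 held 5 and 1 held 7. Their extents ran from 1376 to 18719 bp with a median of 4128 bp, of which 60.9% in all was free of peaks. In 35 groups (40.2%) no peak scored 100 or more, and 19 groups (21.8%) held a peak in the highest 10% of scores over the 4 arms. The latter share counts groups of 2 or more peaks, not peaks. Counted by peaks, 20 of the 210 in groups were in this class, against 70 of all 652 on the arm. Of all peaks on the arm, 414 (63.5%) scored under 100.

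The largest group, with 7 peaks over 18.7 kb at 14242033 to 14260751, lay inside the fullest 100 kb bin. Its peaks scored 168.83, 58.97, 50.59, 355.54, 70.54, 67.04 and 67.91 in order along the arm. The highest peak, at 14247754 to 14248864, was flanked by weak ones 325 bp before it and 108 bp after it. The nearest peaks outside the group lay 13.1 kb before and 9.80 kb after it.

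The next groups each held 5 peaks. That at 4285380 to 4301366 extended over 16.0 kb and held no peak above 132.45. That at 3100499 to 3114787 extended over 14.3 kb, and its first peaks, scoring 181.15 and 415.79, stood 968 bp apart, with 3 weaker ones of 64.87 to 75.15 after them. These groups thus differed in whether 1 peak dominated. The fourth, at 16106479 to 16121092, held 4 peaks, among them 1 of 1921 bp that was the fifth widest of the arm. The fifth, at 13518251 to 13530551, held 4 peaks of similar score, from 68.40 to 92.55. The largest group was smaller on 2L and 3L, with 5 peaks each, and larger on X, with 9 peaks over 32.0 kb.

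**Figure D4:**
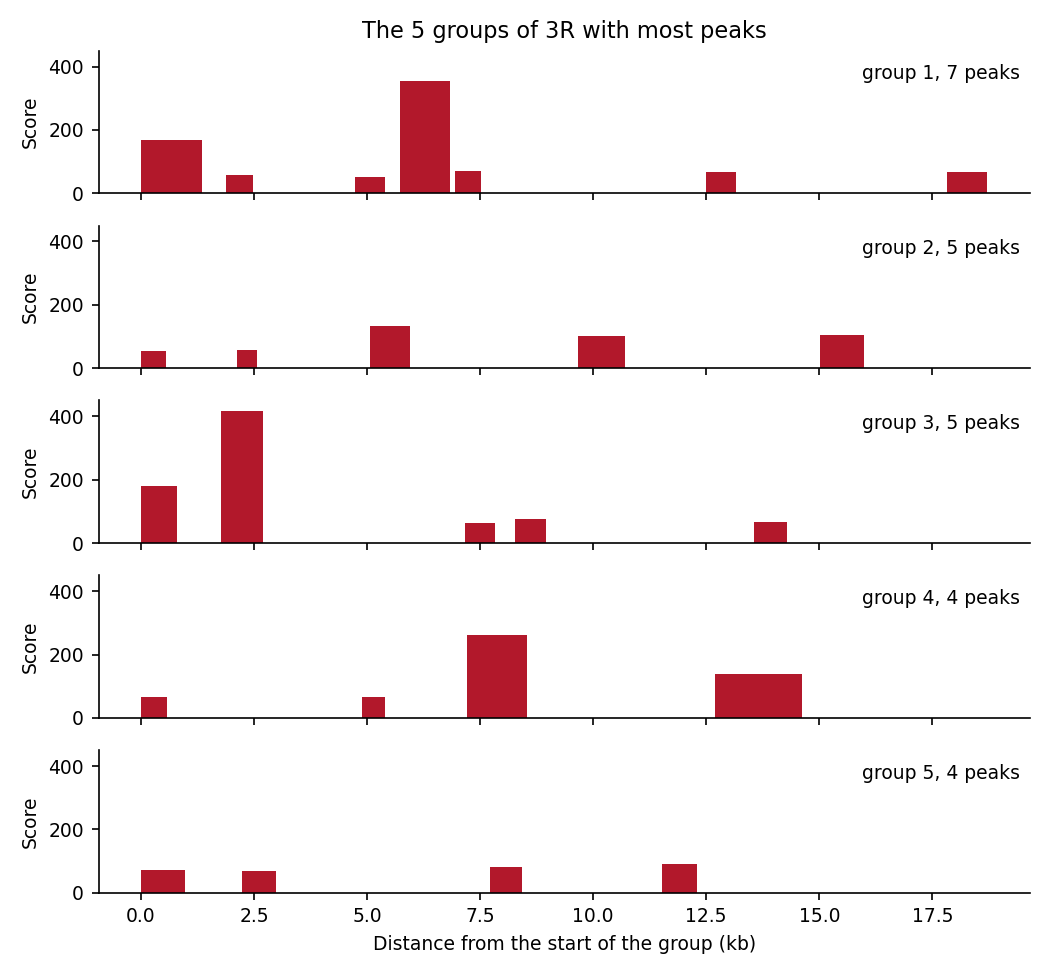
The 5 groups of 3R with most peaks, each drawn from its own start in kb, with every peak as a bar of its true width and of a height equal to the authors' score. Group 1 holds 7 peaks with a highest score of 355.54, group 3 has the highest peak at 415.79, and no peak of group 5 exceeds 92.55.

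Runs of adjoining peaks, with less than 1 kb between one and the next, were short. There were 37 runs with 78 peaks, or 11.96% of the arm's peaks (exact 95% interval 9.57 to 14.7), against 15.0% on 2L, 14.3% on 3L and 14.5% on X. Of the 37 runs, 34 were pairs. The longest held 4 peaks over 4.70 kb at 11239270 to 11243968, separated by 540, 407 and 689 bp, with scores of 85.58, 113.79, 67.89 and 61.67. The others with 3 peaks lay at 5057760 to 5061007 and, within the largest group, at 14246769 to 14249557. In both, the middle peak had the highest score of the run, 336.47 and 355.54. Among the pairs the longest run, at 24408132 to 24411219, lay alone, with 227 kb free before it and 190 kb after it. It was not tested whether the caller divided single regions into such runs. When each run was counted as 1 region, 3R had 611 regions, and 23.4% of them lay in groups (exact 95% interval 20.1 to 27.0). The share was 24.9% on 2L, 28.3% on 3L and 33.7% on X (30.2 to 37.3). The intervals of 3R and X did not overlap in this setting, which again is no test.

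Long stretches without a peak were scattered over the arm. An empty stretch means a gap of at least 200 kb. There were 13 on 3R, together 3324 kb or 11.9% of the span, and they measured 200.4 to 318 kb with a median of 246 kb. The numbers were 15 on 2L, 13 on 3L and 7 on X, covering 18.2%, 15.1% and 8.11% of their spans. The longest on 3R was shorter than the longest of the other arms, which measured 571 kb on 2L, 471 kb on 3L and 369 kb on X.

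The longest empty stretch, 25616534 to 25934986, measured 318 kb and lay inside a bin of 1 Mb that was among the 5 fullest. The second, 8448998 to 8756200, measured 307 kb and the third, 16783718 to 17084058, measured 300.3 kb. Further ones ran from 3398590 to 3686699 (288 kb) and from 15063194 to 15350132 (287 kb). The fifth thus began soon after the bin with 39 peaks ended. From the sixth to the tenth they ran from 12968203 to 13216924 (249 kb), from 21933019 to 22179278 (246 kb), from 7587166 to 7830959 (244 kb), from 22875942 to 23106745 (231 kb) and from 24181019 to 24408131 (227 kb). Of the 4 equal parts of the span, counted from the centromere side, the first to the last held 2, 3, 3 and 5 empty stretches. Whether gaps of the assembly or repeats lie in them was not tested.

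The width of a peak on 3R was 705.5 bp at the median, with 630 and 842 bp at the lower and upper quartile (95% order-statistic interval of the median 694 to 713 bp). The widths ran from 400 to 2461 bp. The median was 685 bp on 2L (672 to 701), 703 bp on 3L (686 to 718) and 665 bp on X (654 to 677). The interval of 3R did not overlap with that of X, but these intervals take each peak as independent and are given as a description. Widths were not tested between arms because peaks of 1 list are not replicates. Wide peaks of at least 1 kb numbered 80 on 3R (12.3%, exact 95% interval 9.85 to 15.0), against 10.2% on 2L, 10.7% on 3L and 6.99% on X (5.29 to 9.02).

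The widest peak of the arm lay at 27402834 to 27405294 (2461 bp, score 462.89), and the second widest at 909753 to 911954 (2202 bp, score 1059.13). The next lay at 7200677 to 7202745 (2069 bp), 15835234 to 15837223 (1990 bp) and 16119172 to 16121092 (1921 bp). They were followed by 12061539 to 12063316 (1778 bp), 9806952 to 9808695 (1744 bp) and 4314578 to 4316239 (1662 bp), and then by 13956032 to 13957680 (1649 bp) and 14020589 to 14022108 (1520 bp). Of these 10, 3 lay in a group, close to the 32.2% of all peaks of the arm, and 2 were also among the 10 highest scoring. Of all 80 wide peaks, 27 lay in groups. The widest peak was 1978 bp on 2L, 4109 bp on 3L and 2308 bp on X. The 5 narrowest on 3R were 400 to 450 bp wide with scores of 51.87 to 79.39, and the narrowest lay at 20259425 to 20259824.

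Peaks of higher score classes were wider, whereas width differed little with the distance to the next peak. The median width was 610 bp in the lowest 25% of 3R scores, 670 and 725 bp in the next classes of 25%, 863 bp between the 75th and 90th percentile, and 965 bp in the highest 10%. Score and width come from the same calling of peaks, so this is a description of the calls. Peaks with another under 1 kb away had a median width of 711.5 bp (n = 78), and those with none within 100 kb had one of 695 bp (n = 14). The classes between had medians of 702 to 708 bp. Grouped peaks had a median width of 709 bp and a median score of 80.6, and lone peaks 702 bp and 79.1.

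**Figure D5:**
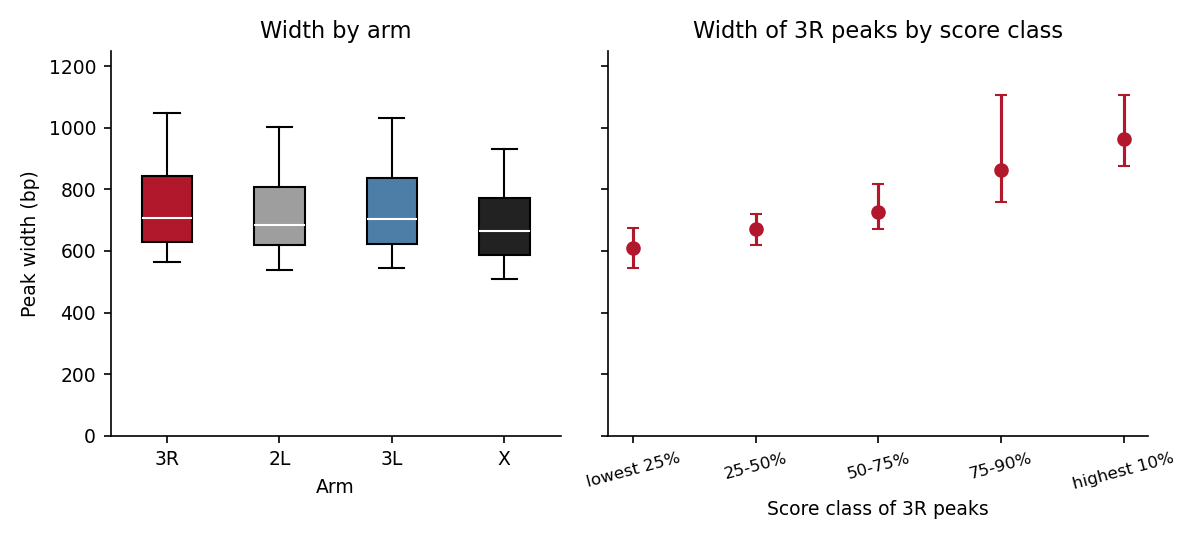
Left, peak widths in bp by arm, with boxes from the lower to the upper quartile, a white line at the median and whiskers from the 10th to the 90th percentile. Right, the median width of 3R peaks by score class, with bars from the lower to the upper quartile. The medians are 705.5 bp on 3R and 665 bp on X, and the class medians on 3R go up from 610 to 965 bp.

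Of the 10 highest scoring peaks of the arm 9 lay outside groups, as did 442 of all 652 peaks. The highest score was 1568.12 at 367898 to 369043, with the nearest peak 37.5 kb away. The second, 1223.59 at 26343661 to 26344711, had no peak within 146 kb on either side. The third, 1132.2 at 4905058 to 4906073, stood 35.9 kb from its neighbour. The one in a group, at 11218669 to 11219661 (score 964.79), had a peak 170 bp before it.

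The remaining 6 of the 10 stood 6.40 to 26.3 kb from their nearest neighbour. They lay at 909753 to 911954 (1059.13), 16627593 to 16628685 (913.35), 12394816 to 12395783 (743.22), 14020589 to 14022108 (706.68), 12364301 to 12365283 (657.12) and 67635 to 68577 (640.46). Those that start at 12394816 and 12364301 share a bin of 1 Mb, which held 24 peaks, 4 of them in groups. Over a wider class, 20 of the 70 peaks of 3R in the highest 10% of scores over the 4 arms lay in groups (28.6%), close to the arm's share of 32.2%. The same class had 13 of 46 in groups on 2L, 23 of 62 on 3L and 35 of 70 on X. These shares were not tested against each other.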

How the data were processed

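The caller was MACS, per the file headers, and Bowtie aligned the reads to BDGP5, per the submitters' processing notes. For the tool versions, the control used in calling, the threshold and the way replicates were joined, the sources used here say nothing. Each peak's deposited score is the authors' own, with no scale stated and a lowest value of 50. Positions were deposited by the authors as starts and ends. The starts were read as counted from 0 and are printed counted from 1. Depth is unknown.

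The members and definitions were chosen with earlier results of these data known. Peaks were put into fixed bins by their centre, and a bin is complete where it lies between the first and last peak of its arm. Spans stand in for arm lengths, which were not used. Densities were compared by the exact conditional test of Poisson rates, with Clopper-Pearson limits and Benjamini-Hochberg adjustment over 3 arms. All else is description. Alternatives were score limits, joined peaks, other distances, moved bins and other lengths. Items were named by rank: the 5 fullest and emptiest 1 Mb bins, the 10 fullest 100 kb bins, the 5 largest groups, the 10 longest empty stretches, and the 10 widest, 5 narrowest and 10 highest scoring peaks. That rule also asked for runs of 3 or more peaks. Python 3.11.15, numpy 2.4.6, pandas 2.3.3 and scipy 1.17.1 were used, and the counting was checked on made-up lists.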

Additional observations from a re-analysis of the deposited data

Results flagged for a closer look

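Peaks outside the counts above were found on 3RHet, the heterochromatic scaffold of the same arm, which held 4 peaks. They are given because they lie outside the peaks named exactly 3R. The widest, at 560917 to 562039, was 1123 bp wide with a score of 151.58. The others, at 1805337 to 1806016, 1820383 to 1820879 and 1894685 to 1895291, scored 82.36, 54.1 and 56.74. Since the input data were not analysed here, their number has no control value to be set against.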

How the results depend on the processing

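Of 34 alternatives, 22 were counted as the same, 11 moved a described value and 1 ended a call. Among the 22 are density ratios that stayed on the same side of their limit. The others are counts of the fullest bins and the median width and gap after joining, for which there was no test. All 15 density alternatives kept the direction. The ratio of 3R to 2L came nearest to a call after joining, at 1.13 (interval 1.002 to 1.285). Its interval lay just above 1, but it did not pass after adjustment (adjusted exact p = 0.066). The density ratio of 3R to X lost its call among the highest 10% of scores, at 0.799 with 70 peaks on each arm. Counts in the fullest bins stayed within 1.5 times of the main counts. They ran from 35 to 55 for 1 Mb, against 39, and from 9 to 12 for 100 kb, against 11. For the score classes, groups and runs were formed again from the peaks of the class alone. The share of 3R peaks in groups was then 21.5% in the upper 50% of scores and 2.86% in the highest 10% (2 of 70). With all peaks kept, 20 of those 70 peaks lay in groups (28.6%). The share was 18.3% with a limit of 2 kb, 48.8% with 10 kb and 23.4% after joining. The share in runs was 8.23% and 0% in these score classes (0 of 70 peaks in the highest 10%), 6.60% with a limit of 500 bp and 18.3% with 2 kb. In the upper 50% of scores the median width was 811 bp and the median gap 49.5 kb. Fewer peaks and other distance limits change these values by construction. Joining left the median width and gap within their intervals. What the unknown depth limits was not examined. No paired analysis was possible because replicates 1 and 2 of the ChIP were deposited as a single list.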
